A study of Mus musculus with 6 samples.

Results

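The Krüppel-like factor genes described here are the 10 mouse genes Klf1, Klf2, Klf3, Klf4, Klf5, Klf6, Klf7, Klf9, Klf10 and Klf13. They were chosen by name, and their chromatin was read from a map of the mouse genome (mm10) that gives each 200 bp bin a state from 1 to 18. Every segment of that map that reached a gene record or the 20 kb on each side of it was taken, which gave 321 of 850831 segments. The 10 windows covered 648.0 kb and did not overlap. The study profiled histone variant H3.3 in hematopoietic stem cells (HSCs) from bone marrow of adult C57BL/6 mice, with 2 biological replicates of H3.3 ChIP from HIRA KO cells and 2 from wild-type (WT) cells, and 1 input of each genotype. HIRA is a chaperone that deposits H3.3 outside DNA replication. Deletion of Hira in the blood system was induced with poly(I:C), a synthetic double-stranded RNA that triggers interferon, in 2 injections of 20 ug, and the cells were sorted 7 days after treatment. The labels give the WT mice the same injections. No source used here names the driver of the deletion or the surface markers of the sort.

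The map carries the WT HSC H3.3 label in its file name only, so it is a single set of states without replicates, read counts or a knockout column. No statistical test between samples was possible, depth is unknown, and the HIRA KO libraries were not analysed here. The states have numbers and no names. Members are therefore set beside the same measure over all 21779 protein-coding genes, as a description. Of the HSC marker genes, 9 of 9 had a start in states 3 to 6, where the share over all protein-coding genes was 49.3%. Counts were 0 of 6 erythroid, 0 of 5 neutrophil and 1 of 3 megakaryocyte markers. For B cell and T cell markers they were 0 of 4 each. Of 3 endothelial markers, Emcn and Tek had a start in these states and Cdh5 did not. The class and the lists were chosen with earlier results of these data known. These counts are therefore a description and no independent check of the cell label.

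Krüppel-like factors are transcription factors with a C-terminal array of zinc fingers that binds CACCC boxes and related GC-rich elements. Members divide into activators and repressors, and many act at the border between cell quiescence, proliferation and differentiation. In blood, KLF1 is the master regulator of red cell genes, KLF2 keeps lymphocytes quiescent and guides their traffic, and KLF4 acts in monocyte differentiation and in reprogramming to pluripotency.

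The promoters of 4 members are shown because they stand for the 3 arrangements found at the starts. Klf3 (chr5:64803271-64803570, plus strand) lay wholly in state 6. Klf2 (chr8:72318812-72319111, plus strand) crossed from state 3 into state 9, with 189 of its 300 bases in state 3. Klf4 (chr4:55532426-55532725, minus strand) lay wholly in state 9, and Klf1 (chr8:84901732-84902031, plus strand) wholly in state 17. The sequences are from RefSeq (GRCm38.p6), run 5′ to 3′ from 250 bases before the start to 50 after it, and are given in lower case. Capitals mark every match to CACCC or GGGCGG on either strand, where the reverse complements read GGGTG and CCGCCC.
Klf3: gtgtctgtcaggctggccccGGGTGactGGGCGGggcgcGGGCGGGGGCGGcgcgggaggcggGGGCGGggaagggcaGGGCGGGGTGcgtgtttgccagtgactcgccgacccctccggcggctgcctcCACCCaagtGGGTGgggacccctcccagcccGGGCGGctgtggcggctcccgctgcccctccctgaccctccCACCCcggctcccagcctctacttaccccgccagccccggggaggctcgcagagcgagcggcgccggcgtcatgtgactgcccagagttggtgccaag
Klf2: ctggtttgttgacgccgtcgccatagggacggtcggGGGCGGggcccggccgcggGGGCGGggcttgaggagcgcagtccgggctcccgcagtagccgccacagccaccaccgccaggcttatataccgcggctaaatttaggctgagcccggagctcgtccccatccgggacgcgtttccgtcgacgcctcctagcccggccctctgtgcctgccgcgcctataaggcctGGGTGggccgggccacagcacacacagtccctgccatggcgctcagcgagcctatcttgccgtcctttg
Klf4: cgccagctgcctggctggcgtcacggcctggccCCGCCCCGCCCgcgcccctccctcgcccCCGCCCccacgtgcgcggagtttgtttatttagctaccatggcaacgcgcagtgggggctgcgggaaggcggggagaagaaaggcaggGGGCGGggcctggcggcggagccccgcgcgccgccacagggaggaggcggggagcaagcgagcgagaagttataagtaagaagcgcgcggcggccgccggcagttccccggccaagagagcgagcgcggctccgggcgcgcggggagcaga
Klf1: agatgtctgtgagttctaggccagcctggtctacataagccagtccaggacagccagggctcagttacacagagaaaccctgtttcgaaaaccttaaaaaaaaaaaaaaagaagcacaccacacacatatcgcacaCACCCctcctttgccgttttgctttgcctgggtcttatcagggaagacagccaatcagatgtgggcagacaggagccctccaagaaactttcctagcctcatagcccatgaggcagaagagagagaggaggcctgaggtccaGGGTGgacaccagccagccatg

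Of the 10 genes, 6 had a start in states 3 to 6: Klf3, Klf6, Klf7, Klf9, Klf10 and Klf13. The percentage over all protein-coding genes was 49.3%, and this share of members is near it. It was 50.3% for genes with a listed start and 45.3% for those without. States 3 to 6 cover 1.13% of the genome, so they are concentrated at gene starts, and they are treated here as a class. A listed start was available for 8 members, and for Klf5 and Klf10 both ends of the gene record were read instead. Of the other 4, Klf2, Klf4 and Klf5 had state 9 at the start or at an end, where the percentage over all genes was 8.3%, or 20.4% for any of states 9 to 11. The remaining gene, Klf1, started in state 17, where it was 9.86%. All 10 nevertheless had at least 1 bin of states 3 to 6 within 1 kb of the start, against 52.0% of all protein-coding genes. Among genes with a start in state 9 and not in states 3 to 6, such a bin was found in 13.0%.

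**Figure D1:**
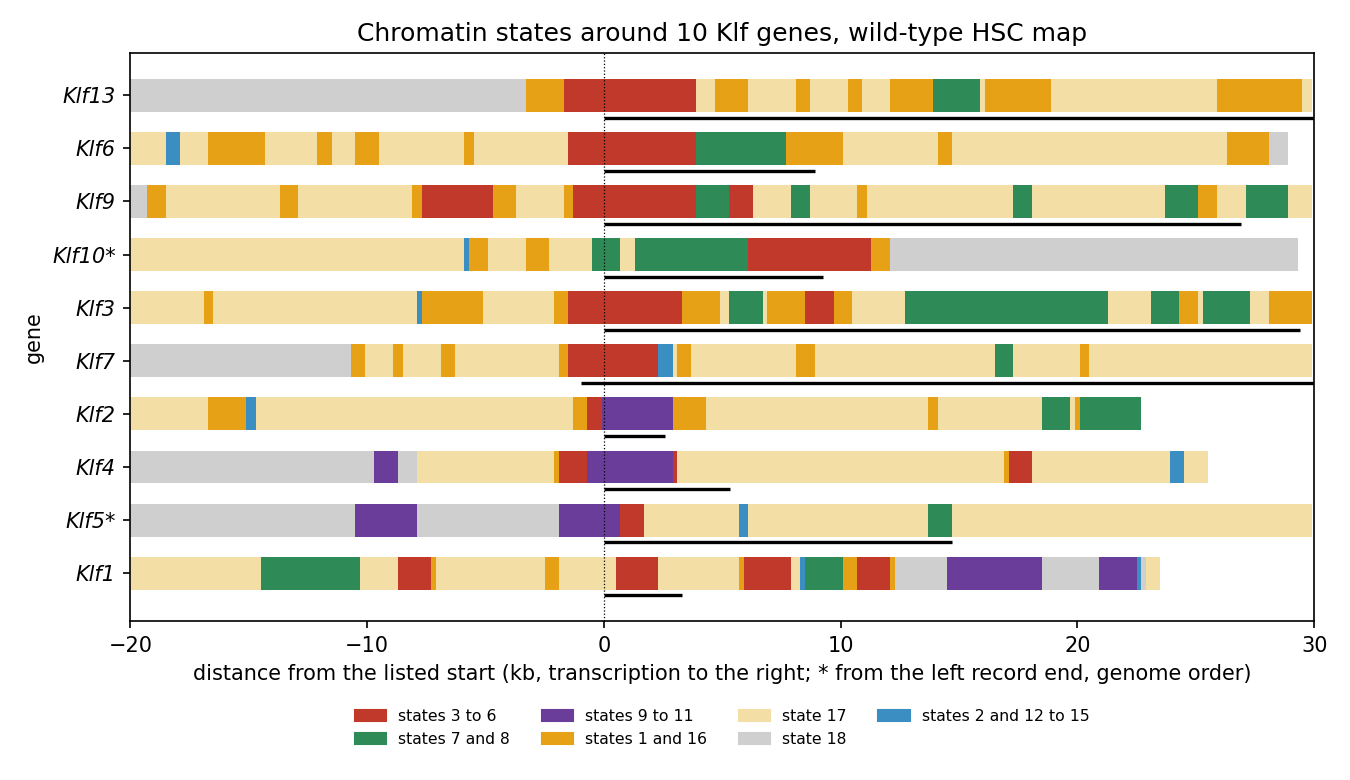
States of the map in bins of 200 bp from 20 kb before to 30 kb after the listed start of each Klf gene, oriented with transcription to the right; Klf5 and Klf10 (asterisks) are in genome order from the left end of the record, and black lines mark gene records, cut at 30 kb. The upper 6 genes have a broad block of states 3 to 6 over the start (in Klf10, over the right end), Klf2, Klf4 and Klf5 have states 9 to 11 there with a short block of states 3 to 6 beside them, and Klf1 has state 17 with a block just inside the gene.

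The 6 genes with a start in states 3 to 6 all carried long unbroken runs of them. Klf13, which encodes an activator of the chemokine gene Ccl5 in T cells, had the longest, of 5.6 kb (chr7:63935001-63940600). Klf6, a gene rapidly induced on tissue injury, had a run of 5.4 kb (chr13:5860001-5865400). Klf9, a target of glucocorticoid and thyroid hormone, had 5.2 kb (chr19:23140001-23145200). Klf10, the TGF-beta-inducible early gene, also had 5.2 kb, over the right end of its record (chr15:38297601-38302800). Klf3, which encodes a repressor that recruits CtBP, had 4.8 kb (chr5:64802001-64806800). Klf7, known for its part in the development of sensory neurons, had the shortest of the 6, at 3.8 kb (chr1:64119001-64122800).

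These lengths were long for the map. A run of 2 kb or more lay over the start of 6 of 10 members and of 36.5% of all protein-coding genes. The 8797 genes whose listed start lay in a run of any length had a median length of 2.4 kb and an upper quartile of 2.8 kb, and 90% of them had at most 3.6 kb. All 6 Klf runs were longer than that. Runs of 3.8 kb or more, a length set after the Klf values were seen, were found at 4.01% of all protein-coding genes. In rank among all protein-coding genes the 6 runs lay between the 96.3rd percentile (Klf7) and the 99.3rd (Klf13). Still longer runs lay at HSC marker genes, with 16.0 kb at Meis1, 11.8 kb at Gata2 and 8.40 kb at Hlf.

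**Figure D2:**
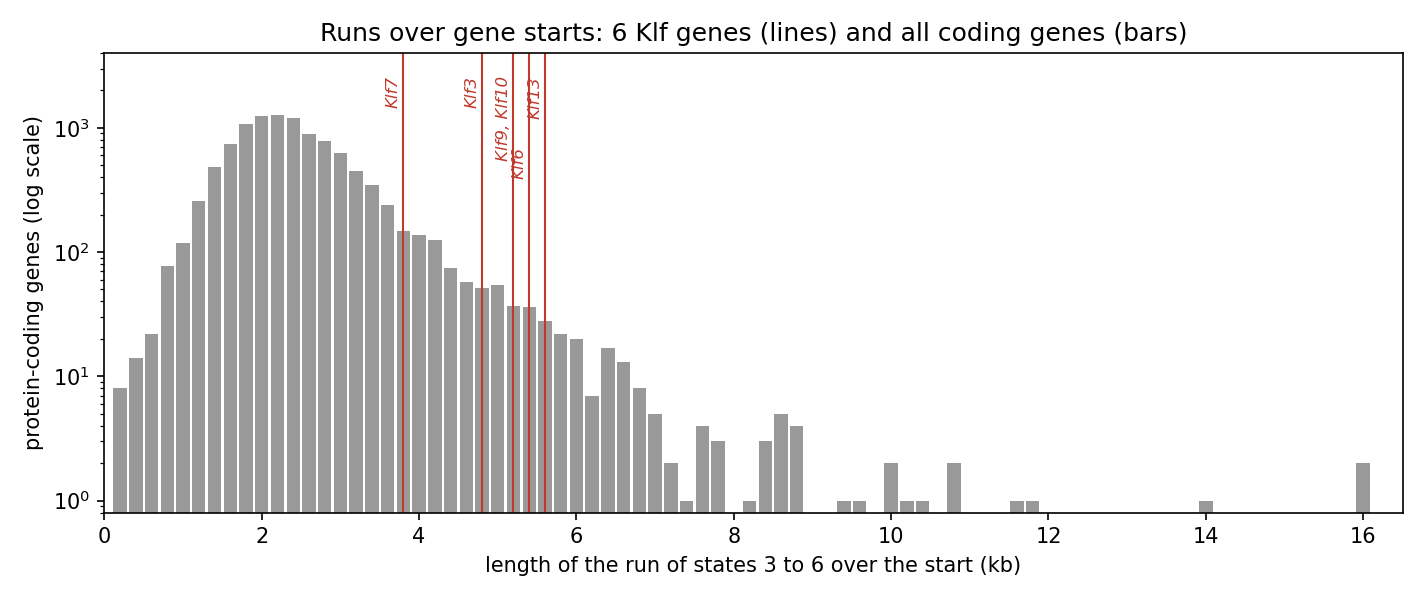
Number of protein-coding genes (log scale) by length of the unbroken run of states 3 to 6 that holds the start, or an end where no start is listed; red lines mark the 6 Klf genes with such a run. All 6 lines, from 3.8 kb at Klf7 to 5.6 kb at Klf13, lie right of the bulk of genes, whose median among listed starts was 2.4 kb.

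For the 5 genes with a listed strand the runs reached further into the gene than away from it. Klf13 had 1685 bases of its run upstream of the start and 3914 downstream. Klf6 had 1488 and 3911, and Klf9 had 1225 and 3974. Klf3 had 1520 upstream and 3279 downstream, and Klf7 had 1411 and 2388. The medians over genes with a listed start in a run were 885 bases upstream and 1344 downstream, and 78.5% of those genes had more bases downstream. Measured from the listed starts, both arms of all 5 Klf runs were thus longer than the median arm, while the direction was that of most genes. For Klf7 this depends on the start used. Its listed start, at 64121389, lies inside the record, which ends at 64122345 on that side. From that record end the upstream arm of Klf7 would be shorter than the median arm.

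The gene records themselves differ widely in size. By Entrez ID, Klf13 is 50794 (63886351 to 63938915, minus strand), Klf6 is 23849 (5861489 to 5870393, plus strand) and Klf9 is 16601 (23141226 to 23168129, plus strand). Klf3 is 16599 (64803521 to 64832901, plus strand), Klf7 is 93691 (64029448 to 64122345, minus strand) and Klf10 is 21847 (38291464 to 38300711, strand not listed). The Klf3 run also holds an end of the predicted coding record Gm38457, whose own start lay outside the run, in state 8.

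Around the start the states within the runs had an order. At 0.8 and 1.0 kb upstream of the start bin, 5 of 5 genes were in states 3 or 5. At the start bin 4 of 5 were in states 4 or 6, the exception being Klf7, in state 3. At 0.4 kb downstream 5 of 5 were in states 4 or 6, and from 1.6 to 2.2 kb downstream 4 of 5 were again in states 3 or 5. In the other 8792 genes the same places had lower shares: 36.1% in states 3 or 5 at 0.8 kb upstream, 51.2% in states 4 or 6 at 0.4 kb downstream and 16.8% in states 3 or 5 at 1.6 kb downstream. Their runs were shorter, so fewer of them held any of the 4 states at the outer places. In the 5 Klf genes the order did not hold to the downstream ends of the runs. From 2.6 to 3.2 kb downstream, 2 genes were in states 3 or 5 and 2 in states 4 or 6. At 3.8 kb, 0 were in states 3 or 5 and 3 in states 4 or 6.

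**Figure D3:**
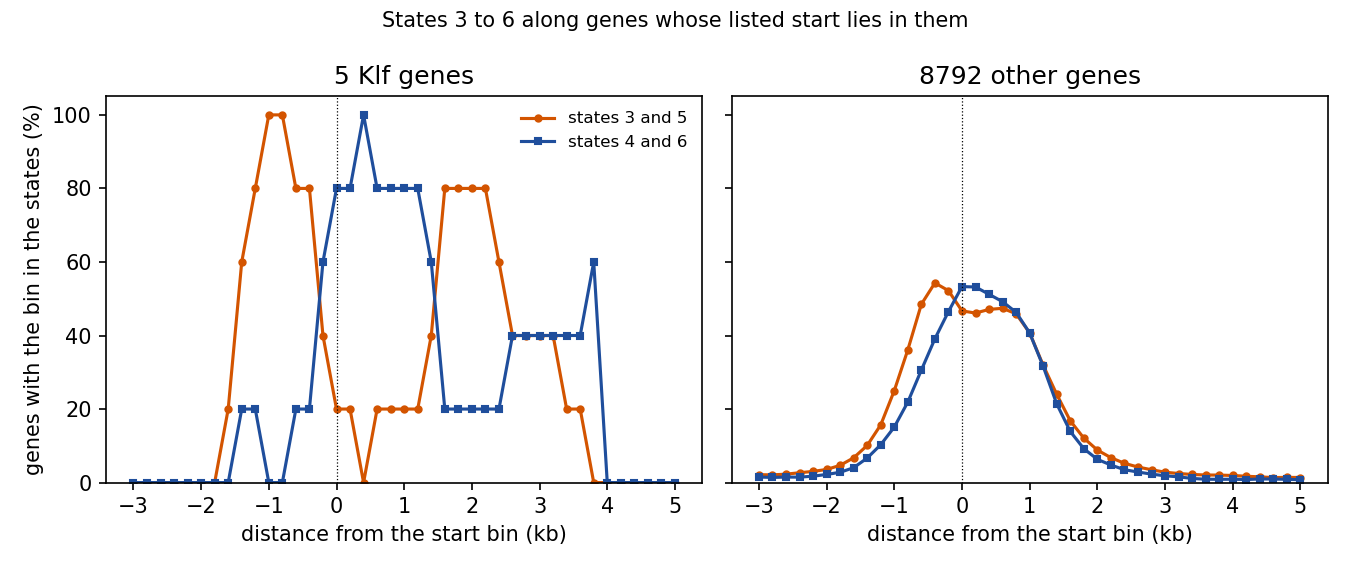
Percentage of genes whose bin at each distance from the start bin lies in states 3 or 5 (orange) or states 4 or 6 (blue), for the 5 Klf genes (left) and the 8792 other genes (right) whose listed start lies in states 3 to 6. In 4 of the 5 Klf genes, all but Klf7, the start bin is in states 4 or 6, with states 3 or 5 on either side within the run. The order does not hold to the downstream ends, where 3 of 5 are in states 4 or 6 at 3.8 kb. Of the other genes, 53.3% have states 4 or 6 at the start bin.

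The individual orders differed. Klf13 was richest in state 4, with 2600 of its bases in it, whereas Klf3 and Klf10 had 3200 bases each in state 3. Klf9 had the most of state 6, at 2400 bases, and 1600 bases in state 5. Klf6 had 2800 bases in state 3 and 1200 in state 4, and Klf7 had 1400 in each. None of these 6 runs was made of a single state.

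Klf9 and Klf3 had further runs away from their starts. Klf9 had a run of 3.0 kb whose near edge lay 4626 bases upstream of the start (chr19:23133601-23136600). An end of the lncRNA record 2410080I02Rik falls in it. A run of 1.0 kb lay 5375 bases downstream of the Klf9 start, inside the gene, and Klf3 had 1.2 kb of state 3 alone inside its gene, 8480 bases from the start. Klf4 had 1.0 kb beyond its far end, 17075 bases from the start (chr4:55514401-55515400).

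Over all windows there were 18 runs. Of these, 6 lay over a start or end of a Klf gene, 2 over the start of another protein-coding gene and 10 elsewhere. State 4 was present in all 8 runs over starts and in 0 of the 10 others, and 6 of those 10 held only states 3 and 5. Over the whole map, state 4 was present in 67.7% of 9628 runs over a start of a protein-coding gene and in 33.9% of 6370 other runs.

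Klf2, Klf4 and Klf5 shared a different arrangement, with state 9 over the start or an end and a short run of states 3 to 6 touching it. At Klf2 (chromosome 8, 72319062 to 72321654) state 9 ran for 2.2 kb from the start bin into the gene, followed by 0.6 kb of state 11, so that 100% of the gene record lay in states 9 to 11. A run of only 0.6 kb, of states 5 and 3, ended 62 bases upstream of the Klf2 start. In the promoter printed above this border falls inside the sequence: both GGGCGG matches lie on the state 3 side and the GGGTG match on the state 9 side.

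At Klf4 (chromosome 4, 55527137 to 55532475, minus strand) state 9 ran for 3.6 kb over the start. A run of 1.2 kb of states 3 and 5 lay upstream of it, 726 bases from the start, and a single bin of state 6 lay at its other edge inside the gene. At Klf5 (chromosome 14, 99298691 to 99313412), which encodes a factor of proliferating intestinal epithelium, state 9 covered 1.4 kb over the left end of the record. There a run of 1.0 kb of states 6 and 5 lay inside the record, 710 bases from that end. State 9 segments thus touched a run in 3 of 3 genes, and did so in 15.8% of the 1801 protein-coding genes with a start in state 9 and not in states 3 to 6. The 3 are all the members with state 9 there. Contact with a run was not a planned measure and was counted after the Klf segments were seen.

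Klf1 (chromosome 8, 84901982 to 84905291) had neither arrangement. Both ends of the record lay in state 17, and a run of 1.8 kb, made of states 5 and 3, began 419 bases inside the gene (chr8:84902401-84904200). The bins of the record were divided equally between states 3 to 6 and state 17. Any bin of states 3 to 6 within 1 kb was found in 9.81% of the 1550 protein-coding genes with a start in state 17 and not in states 3 to 6. The window of Klf1 is crowded: of its 6.6 kb in states 3 to 6, 3.4 kb lay over the starts of Gcdh, a mitochondrial enzyme gene of lysine breakdown, and Dnase2a, which encodes a lysosomal nuclease that degrades the expelled nuclei of red cell precursors. The share of states 3 to 6 in that window, the highest of the 10 at 15.1%, is therefore in large part that of its neighbours.

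State 17 was the state that the 10 windows had most in common. It covered 52.1% of their bases pooled, against 25.1% over the windows of all protein-coding genes and 15.2% of the genome. The 10 values ran from 34.8% at Klf3 to 72.0% at Klf2, with a median of 54.0%. All 10 lay above the median gene, at 23.7%, and 8 lay above the upper quartile, at 41.0%, the exceptions being Klf3 and Klf10 at 36.8%. Klf2 lay at the 98.5th percentile of all protein-coding genes and Klf9, at 67.8%, at the 97.4th. With no name for the state and no signal behind it, what state 17 holds cannot be stated.

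States 3 to 6 covered 7.07% of the pooled bases of the Klf windows, against 3.11% for all protein-coding genes. Klf2 was lowest at 1.40%, followed by Klf5 at 1.82% and Klf7 at 2.86%. Klf7 has the longest record, of 92.9 kb, so its 3.8 kb run was a small part of a window of 133.0 kb. Klf9 reached 13.7%, Klf6 11% and Klf10 10.5%.

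States 1 and 16 together were above the median gene (3.95%) in 8 of 10 windows. The pooled share was 10.5%, against 5.24% over all protein-coding genes. Klf13 had 21.3%, spread over 4 segments of state 1 and 16 of state 16, none of them longer than 1.8 kb, and each segment of state 1 adjoined state 16. Klf6 had 18.8% and Klf3 17.5%. Klf4 had only 0.877% and Klf5 0%, and Klf1, at 4.13%, was close to the median gene. Among the genes with state 9 at the start, Klf2 differed in this, with 9.81%.

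States 9 to 11 were at 0% in the windows of all 6 genes with a long run. They covered 12.8% of the Klf1 window, 10.1% of the Klf4 window, 9.45% of the Klf5 window and 7.01% of the Klf2 window. A window free of these states was found for 39.9% of all protein-coding genes, for 55.1% of those with a run of 2 kb or more, and for 66.1% of those with a run of 3.8 kb or more. In Klf1 the states were of number 11 alone and lay in the downstream flank, at 28.0% of it, within the record of the neighbour Mast1, a kinase gene expressed mainly in neurons. In Klf2 and Klf4 they lay largely over the gene itself.

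States 7 and 8 covered 7.59% of the Klf windows and 12.9% of the windows of all protein-coding genes. Over the gene records alone the order was the opposite, with 14.8% for the Klf genes and 13.9% for all protein-coding genes. Within the gene records they covered 59.6% at Klf10, 44.6% at Klf3 and 42.2% at Klf6. They covered 16.3% of the Klf9 record, 9.47% of the Klf13 record and 3.87% of the long Klf7 record. The Klf1, Klf2 and Klf4 records had 0%, and Klf5 had 6.67%, a single segment of 1.0 kb next to its right end.

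**Figure D4:**
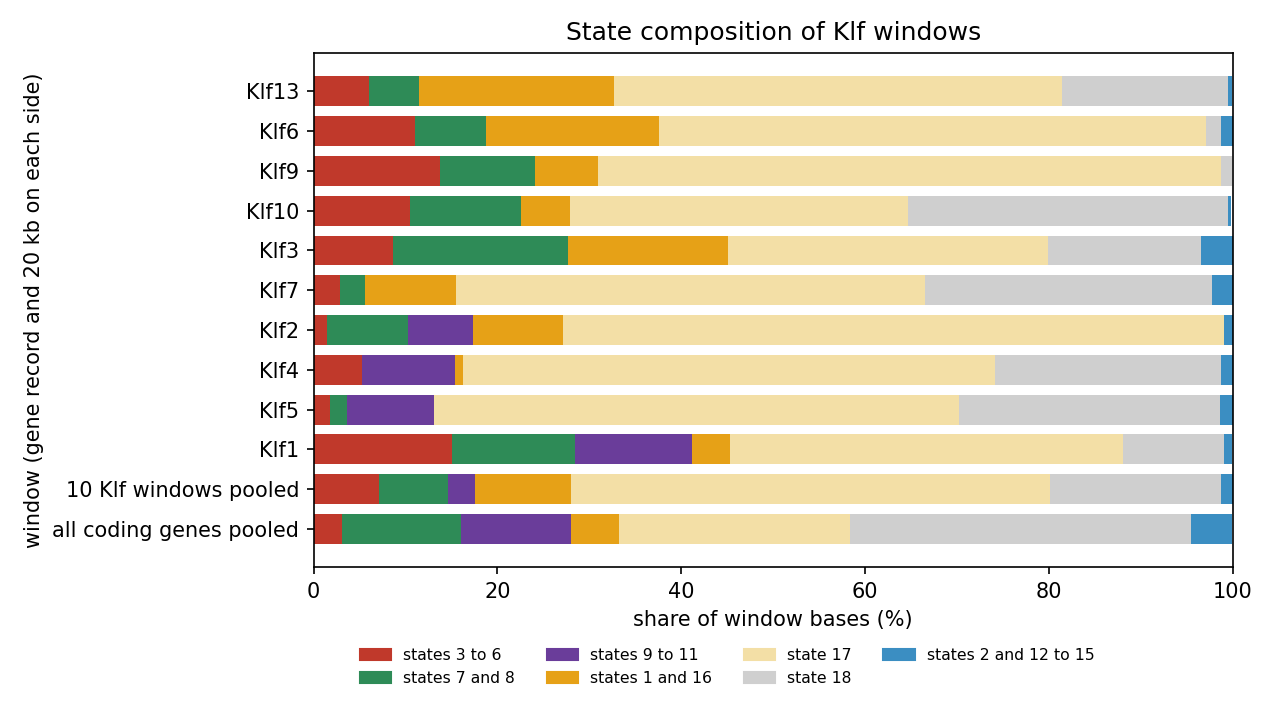
Share of bases in each class of states (horizontal axis, %) for the 10 Klf windows, for the 10 pooled, and for the windows of all 21779 protein-coding genes pooled. State 17 takes 52.1% of the pooled Klf windows, against 25.1% for all genes, and of the 10 Klf windows only those of Klf2, Klf4, Klf5 and Klf1 hold states 9 to 11.

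The flanks were often unlike each other. The upstream 20 kb of Klf13 were 84.0% state 18, the most widespread state of the genome, whereas its downstream flank was 94.0% state 17. Klf4 had 56.0% state 18 upstream and 91.0% state 17 downstream. Klf5 had 78.0% state 18 on its left and 98.0% state 17 on its right, and Klf10 had 88.0% state 17 on its left and 86.0% state 18 on its right. Klf2 had 84.0% state 17 upstream and 70.0% downstream, and Klf6 had 68.0% and 78.0%, with little or no state 18. Klf7 had state 18 on both sides, at 52.0% upstream and 83.0% downstream, while its record was 65.2% state 17.

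Compared in pairs by their shares of the 18 states, Klf4 and Klf5 were the most alike, with a total variation distance of 10.5% of bases, that is, the part of the bases that would have to change state to make the compositions equal. The least alike were Klf10 and Klf2, at 47.2%. Klf5 and Klf7 were next to closest at 16.7%, although their starts differed. The distance is over 18 shares from 1 map, and the shares within a window sum to the whole, so it is a description only.

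The promoters of the 8 members with a listed start were compared in their CpG counts. Klf4 had 40 CpG in 300 bases, Klf2 and Klf13 had 32 each, Klf3 had 29, Klf9 had 28 and Klf6 had 23. Klf7 had 16 and Klf1 had 3. The median was 13 over the 17492 protein-coding genes with a listed start, and 7 over all 32851 promoters of the table, a larger set that also serves for the motif shares below. Among the protein-coding genes, promoters with a start in states 3 to 6 had a median of 22, those with a start in state 9 a median of 24 and those with a start in state 17 a median of 4. Klf2 and Klf4 thus had CpG counts above the median of their state, and Klf1 had 1 fewer than its own.

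**Figure D5:**
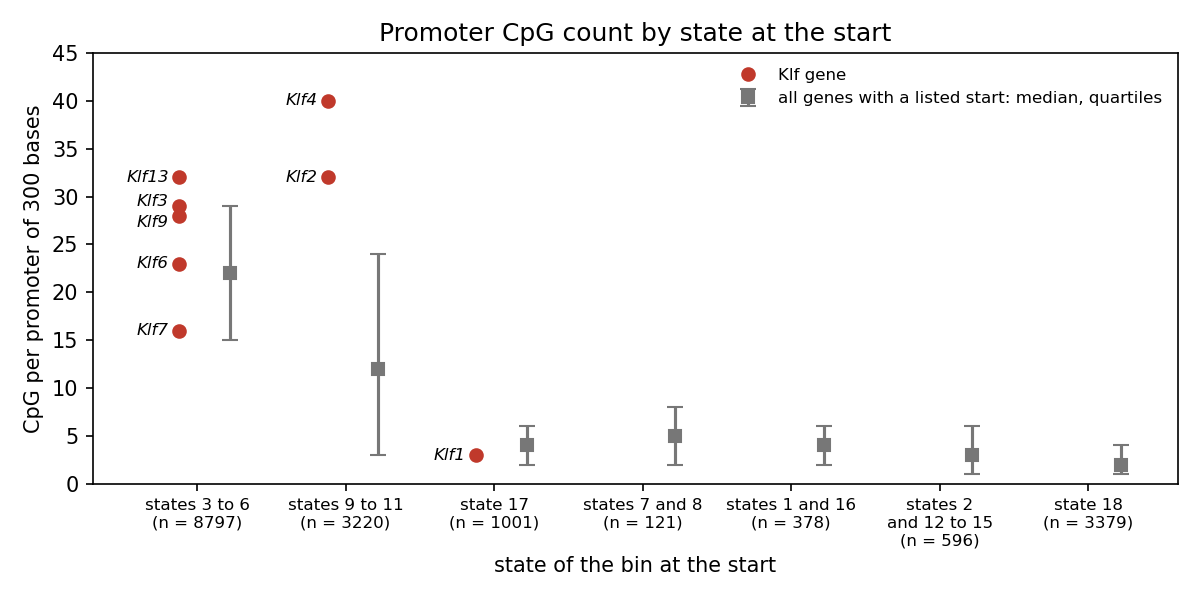
CpG per promoter of 300 bases for the 8 Klf genes with a listed start (red, named) and for all protein-coding genes with a listed start (grey, median with quartiles), by the state of the bin at the start. Klf1, in state 17, has 3, and the other Klf genes have 16 to 40.

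CACCC boxes, the elements that the family itself binds, were found on either strand in 6 of the 8 Klf promoters, against 57.5% of all promoters. Klf3 had 5 matches and Klf7 had 3. Klf1 had 2, Klf2, Klf9 and Klf13 had 1 each, and Klf4 and Klf6 had none in this stretch. GGGCGG was found in 6 of 8, against 35.7% of all promoters, with 6 matches in Klf3 and 4 in Klf4. The GC share of the 8 promoters ran from 51.3% in Klf1 to 76.7% in Klf3, against a median of 52.7% over all promoters. The motif shares were not matched for GC. CCAAT was found in 4 of 8 (37.4% of all promoters), with 4 matches in Klf6 and 3 in Klf9. GATAA was found in 1 of 8, in Klf1 (25.4% of all promoters). GGAAG was found in 5 of 8 (71.4%) and CACGTG in Klf4 and Klf6 (7.15%). TATAAA, TGACGTCA and CCGGAAG had no match in the 8, and were present in 13.6%, 1.79% and 8.86% of all promoters. CCGGAAG contains GGAAG, so its matches count for both. A match describes the letters and is not a bound site.

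The 7 Klf genes outside the 10 and the 9 Sp genes, which encode the related Sp zinc finger factors, were read in the same way. Of the 7, Klf8, Klf11 and Klf16 had a start or an end in states 3 to 6, with runs of 1.80, 2.80 and 3.40 kb, all shorter than the shortest of the 6 long runs. Klf15 started in state 9, and Klf14 had ends in states 11 and 9. The remaining 2 started in states 17 and 18. Of the Sp genes, the ubiquitous Sp1 and Sp3, and Sp4, known mainly from the nervous system, started in states 3 to 6, with runs of 3.0, 3.6 and 3.4 kb. Sp5, Sp6, Sp7, Sp8 and Sp9, factors of developing tissues such as bone, limb and forebrain, had state 9, 10 or 11. The remaining Sp gene had its furthest upstream listed start in state 17. With any listed start, 4 Sp genes started in states 3 to 6. Over all protein-coding genes, the share with a start in states 3 to 6 was 49.3%.

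Neither group showed the arrangement of Klf2, Klf4 and Klf5, which needs state 9 at a start or an end. Only Klf14, Klf15, Sp5 and Sp8 had that state there. Over the map, contact with a run was found in 15.8% of such genes, so its absence from these few sets the members apart in no way. A bin of states 3 to 6 lay within 1 kb of the start in 10 of 10 members and 52.0% of all protein-coding genes. It was found in 3 of the 7 other Klf genes and 3 of the 9 Sp genes. The 3 in each case were those already in the states. States 9 to 11 covered 89.7% of the Sp8 window, 89.3% of the Sp5 window and 48.4% of the Klf14 window, and no more than 12.8% of any of the 10. Low shares were not particular to the members. Klf14 was the only other Klf gene above 12.8%, and the rest ran from 0% at Klf8 and Klf16 to 12.4% at Klf15. Among the Sp genes the shares began at 0% at Sp1 and 2.55% at Sp4, with 16.4% at Sp3.

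Genes that work with the family were read from 3 lists. Of 12 cofactor genes 11 had a start in states 3 to 6, against 49.3% of all protein-coding genes. They were Ctbp1, Fhl3, Sin3a, Sin3b, Hdac1, Hdac2, Ep300, Crebbp, Kat2b, Wwp1 and Smarca4, among them the CtBP, SIN3 and histone deacetylase corepressors and the acetyltransferases that KLF proteins recruit. Wwp1 and Hdac1 have no listed start and were counted through an end of the record. Ctbp2 had its listed start in state 17, but with either end of the record read, all 12 genes counted. The longest of their runs, of 6.80 kb, was at Sin3a.

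Of 11 red cell genes known as KLF1 targets, 5 had a start or end in states 3 to 6, a share near the 49.3% of all protein-coding genes. Bcl11a, the repressor of fetal globin, had a run of 10.4 kb. Dmtn and Icam4, which encode a membrane skeleton protein and a surface adhesion molecule of red cells, had 2.00 and 2.40 kb. Tfrc, the transferrin receptor gene, had 2.00 kb, and E2f2, a cell cycle factor gene, had 1.20 kb. Slc4a1 and Alas2, which are genes of late red cell differentiation, were among the 6 that did not. These 6 are the same genes as the 6 erythroid markers counted above, so the counts are not independent. Of 7 genes known as KLF2 targets, 3 had a start or end in these states, among them S1pr1, the lymphocyte egress receptor gene, with 5.40 kb, and Thbd, the thrombomodulin gene, with 3.0 kb. Itgb7, Ccr7 and Nos3 were among the 4 that did not.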

How the data were processed

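The deposited value is a state number per segment, a label that is neither an amount nor a score with an order; per the file headers, states were ordered by emission. Reads were handled with Bowtie2, deepTools, MACS2 and HOMER on mm10, per the submitters' processing notes, which list no versions or roles. ChromHMM stands only in the file name, and no source used here says which tracks entered the model.

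Each segment was split into its 200 bp bins in Python 3.11.15, numpy 2.4.6 and pandas 2.3.3. Gene records, starts and strands came from RefSeq tables of GRCm38.p6, the assembly of mm10. Of 21900 protein-coding records, 13 off the map and 108 starting in the first 3 Mb of a chromosome were left out. A start was listed for 17492 of 21779 genes, and the one furthest upstream was used where there were several (2761 genes). For the other 4287 both ends were read, and either could count. Promoter letters came from the same tables. A run is an unbroken stretch of states 3 to 6. The code was tested on simulated data.

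The members, state classes and lists were chosen with earlier results of these data known, and no test was made. Named genes were the members, the other Klf and Sp genes and the fixed lists, coding neighbours with a run at their start, and for each member the gene of closest composition. Of a list, genes in states 3 to 6 and up to 3 others were named. The lncRNAs, Mast1 and Gm38457 were added after their values were seen. Ahsp and the identity of the zinc fingers were not analysed here, and 2 genes of the target lists are counted but not reported by name.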

Additional observations from a re-analysis of the deposited data

How the results depend on the processing

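Outside the leave-one-out values, 55 of 74 alternative values stayed within 1.5 times the count or within the 95% Wilson interval of the share, and 19 moved. For the pooled shares, neighbouring bins of a segment are not independent draws. The interval is therefore only a fixed margin there and measures no spread. With any bin within 1 kb of the start, members with states 3 to 6 numbered 10 in place of 6. With states 3 and 5 only, the counts were 2 members, 1 other Klf gene, 1 Sp gene, 6 cofactor genes and 3 KLF1 target genes. With states 4 and 6 only, they were 5 cofactor genes, 2 KLF1 target genes and 0 KLF2 target genes. The background of starts in states 3 to 6 was 50.4% on autosomes and 50.3% for listed starts only. These differ by construction in the states, bins or genes counted.

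The shares depended on the window. States 3 to 6 covered 11, 11.3 and 4.17% of the Klf bases with 0, 5 and 50 kb of flank, against 2.22, 2.99 and 3.11% for all genes. States 7 and 8 covered 14.8% with 0 kb and 11.2% with 5 kb, against 13.9 and 13.2% for all genes, so that the Klf genes lay above all genes with 0 kb and below with 5 kb. States 9 to 11 covered 4.23% with 50 kb, against 12.1% for all genes. As a mean of the 10 shares, states 9 to 11 came to 3.94%. State 17, for which all alternatives were added after seeing the data, covered 43.6% with 50 kb, against 24.1% for all genes.

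Leaving out each member in turn gave 6.30 to 8.16% for states 3 to 6, 2.12 to 3.57% for states 9 to 11, 6.23 to 8.86% for states 7 and 8, and 50.2 to 54.1% for state 17. The count of members with a run of 2 kb or more was 6 under every alternative except a minimum of 4 kb, which gave 5. No paired analysis was possible because the map is a single segmentation with no column per replicate. The depth behind the states is unknown.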

Other observations

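For each Klf gene, the protein-coding gene on another chromosome whose window had the closest composition in the 18 states was found over this 1 map. For Klf7 it was the olfactory receptor gene Olfr323, at a total variation distance of 4.08% of bases. For Klf10 it was 2410004P03Rik at 5.08%, for Klf9 Dusp18 at 5.16%, for Klf13 Yaf2 at 5.91% and for Klf6 Vmp1 at 6.08%. For Klf5 it was Pgf at 7.21%, for Klf2 Add3 at 7.71%, for Klf3 Sptssa at 8.30% and for Klf1 Dedd at 8.44%. For Klf4 it was Slco2a1 at 10.5%, and Klf5 lay at 10.5% from Klf4 as well. The median distance to all protein-coding genes ran from 43.0% for Klf10 to 61.7% for Klf2.

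Ends of lncRNA records lay within the runs of states 3 to 6 in 4 of the 10 windows. They were Gm35880 in the run over the Klf7 start, Gm35248 in the run of Klf10, 2410080I02Rik in the upstream run of Klf9, and Gm39213 and Gm38426 in runs around Klf1. Gm12506, whose record spans the upstream run of Klf4, had no end in it. Whether a run belongs to a Klf gene or to such a record was not tested.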
